A study of Mus musculus with 8 samples.

Results

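The olfactory receptors numbered Olfr543 to Olfr691 were examined as a group of 116 genes, out of 1104 receptor genes with an Olfr number and 22553 genes in all. They were chosen by symbol alone, with no cutoff on a measured value, though earlier results of these data were known. All 116 lie on mouse chromosome 7 within 2861 kb (mm10 coordinates, chr7:102476773-105337714). RefSeq synonyms assigned 112 of them to the MOR families 1 to 42, which are the class I receptors. Olfr605 carries synonyms of both classes, Olfr596, Olfr652 and Olfr681 carry none that settles the class, and Olfr664 is annotated as a pseudogene. The 988 other receptors, the set for comparison, held 956 class II genes and 12 class I genes. The coding length had a median of 954 bases against 942 in the other receptors, with Olfr643 as the exception at 141 bases.

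Olfactory receptors are odorant-binding proteins with a membrane topology typical of G protein-coupled receptors, and a mature olfactory sensory neuron usually expresses a single one of them from a single allele. Class I receptors resemble those of fish, are clustered at one chromosomal locus in the mouse, and are mostly used by neurons of the dorsal epithelium and bulb. Several respond to carboxylic acids. Class II receptors, the larger mammalian set, are spread over many chromosomes.

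Ribosome footprints, mRNA fragments protected by translating ribosomes, and input RNA had been sequenced from cells of the main olfactory epithelium sorted by GFP. Ngn1-GFP positive cells are neuronal progenitors and immature sensory neurons carrying an Ngn1-GFP transgene, and OMP-GFP positive cells are mature sensory neurons with an OMP-ires-GFP knock-in. Control mice were Mex3a flox/flox or flox/+ without Cre, and KO mice were Mex3a flox/flox with Foxg1iresCre, a Cre knock-in at the gene of a factor of the developing forebrain and olfactory placode. The genotype tag of the OMP-GFP KO names OMP-ires-Cre where its description names OMP-ires-GFP. No age was given in the labels. The 4 groups had 2 footprint libraries each, but the table gives 1 column of footprints and 1 of RNA per group, so no difference here has a replicate check and no test of the conditions was possible. No source used here says how 2 libraries became 1 column, and genotype cannot be told apart from anything else that differed between the single columns. Fewer cells that use a receptor and less RNA or translation per cell cannot be told apart either. Sets of 4 values are given in 1 order throughout: Ngn1-GFP control and KO, then OMP-GFP control and KO. Brackets are 95% counting intervals and cover counting error only, since reads copied by PCR are not independent molecules. Ratios of KO over control, or of OMP-GFP over Ngn1-GFP cells, are log2 ratios unless a fold is stated.

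The columns held 3031489 to 4456989 footprints and 26946592 to 89327877 RNA reads, the Ngn1-GFP control being the deepest in both. Mex3a, the targeted gene, had 437, 28, 16 and 5 footprints, so it was lower in each KO column than in its control. The sorts differed in other cell types. The 6 sustentacular cell markers summed to 4495, 483, 136 and 503 footprint CPM, the counts scaled to a common library total. The 8 mature neuron markers summed to 11385, 12601, 18203 and 22357 CPM, and the 5 precursor markers to 962, 1222, 144 and 167. The 6 gland markers summed to 310, 589, 61.1 and 534 CPM. The 6 immature neuron markers summed to 2766, 3223, 1652 and 1835 CPM. Nqo1 and Acsm4, markers of the dorsal zone, summed to 1537, 1466, 2046 and 2082 CPM. Ncam2 and Nrp2, markers of the ventral zone, summed to 618, 588, 734 and 610 CPM. These marker differences go with the groups, and their part in the results below was not tested.

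The 116 receptors held a smaller share of receptor footprints in mature than in immature cells of both genotypes, while their share of receptor RNA was level between the controls. They had 6139, 4218, 4463 and 4700 footprints. That was 16.5% [16.2, 16.9] of all receptor footprints in the Ngn1-GFP control and 15.4% [15.0, 15.8] in its KO. In OMP-GFP cells it was 13.0% [12.6, 13.3] in the control and 12.1% [11.7, 12.4] in the KO. Both Ngn1-GFP values lay above both OMP-GFP values, and the 4 intervals did not overlap. In RNA they held 13.8%, 14.7%, 13.97% and 13.1% of receptor reads, from 53518, 16302, 20465 and 17487 reads.

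**Figure D1:**
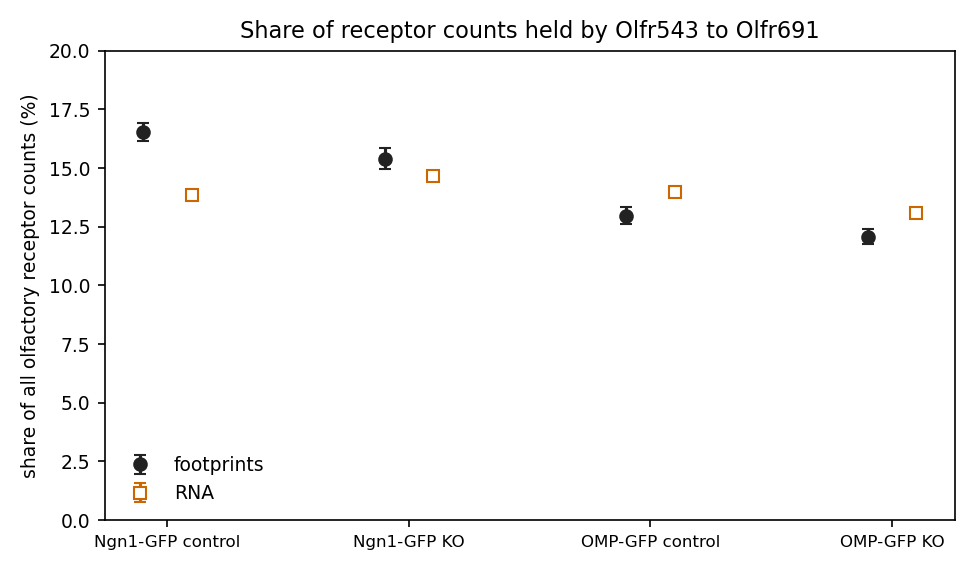
Share of all olfactory receptor counts (%) held by Olfr543 to Olfr691 in each of the 4 groups, with filled circles for footprints, open squares for RNA and bars for the 95% counting interval. The footprint share steps down across the 4 groups from 16.5% to 12.1%, and the RNA share stays between 13.1% and 14.7%.

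Taken as a ratio of OMP-GFP over Ngn1-GFP cells, the footprint share had a log2 ratio of -0.35 [-0.41, -0.30] in controls and the RNA share one of 0.01 [-0.01, 0.04]. In the KO columns the same ratios were -0.35 [-0.41, -0.29] and -0.16 [-0.20, -0.13]. The summed footprints of the 116 receptors were nearly level between the control populations, at 1247 CPM in Ngn1-GFP and 1311 CPM in OMP-GFP cells, while those of the 988 other receptors were 1.40-fold higher in OMP-GFP cells. The shares do not depend on how the columns are scaled, but the summed values do: the control ratio of the sum was 0.07 [0.02, 0.13] with TMM scaling and -0.14 with library size alone. The 12 class I receptors outside the number range summed to 320, 221, 250 and 289 footprints. Their footprint share was also lower in OMP-GFP cells in controls, at -0.25 [-0.49, -0.004]. In the KO columns it was -0.12 [-0.38, 0.14], an interval that includes 0. Their RNA share was lower as well in controls, at -0.42 [-0.49, -0.35]. Footprint share over RNA share thus differed between the control populations by 0.17 [-0.08, 0.42] for these 12, against -0.36 [-0.42, -0.30] for the 116 receptors.

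Footprints per RNA read, the CPM of footprints divided by the CPM of RNA, were compared next. The 116 receptors had 2.10 [2.05, 2.16] and 2.36 [2.28, 2.44] in Ngn1-GFP cells, and 1.997 [1.93, 2.06] and 1.89 [1.83, 1.95] in OMP-GFP cells. The other receptors had 1.70, 2.23, 2.18 and 2.08. Set against the other receptors, the 116 were 1.23-fold [1.20, 1.27] higher in the Ngn1-GFP control and 1.06-fold [1.02, 1.099] higher in its KO, and stood at 0.918 [0.886, 0.9502] and 0.912 [0.881, 0.944] in OMP-GFP cells. The 116 thus stood above the other receptors in both Ngn1-GFP columns and below them in both OMP-GFP columns.

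Nearly every one of the 116 was translated at a detectable level somewhere. A footprint was found for 114, 105, 109 and 102 receptors, and 95 had footprints in every column. At equal depth, thinned to 3031489 footprints, the expected numbers were 113.4, 105.0, 108.6 and 101.2, or 97.8%, 90.5%, 93.6% and 87.2% of the group. The other receptors reached 89.7%, 80.5%, 90.4% and 79.4% at that depth. Both KO columns thus held fewer detected receptors than their controls, inside and outside the range, where 1 footprint was enough. With at least 10 footprints at that depth the Ngn1-GFP columns were nearly level, at 90.9 and 90 receptors. The other receptors then had 56.9% and 56.4%. In OMP-GFP cells the KO stayed lower, with 88.6 and 77.9 receptors, and 60.6% and 54.8% of the others. Olfr663 and Olfr688 had no footprint in any column, which allows each at most 0.609 to 0.938 CPM, the worth of 3 counts. For Olfr663, which differs from Olfr661 at 2 of the first 50 coding bases, this limit covers assigned reads only. Olfr688 nevertheless had 141 RNA reads in the Ngn1-GFP control and 0 in each of the other 3 columns.

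Footprints were spread unevenly over the receptors. The effective number, the count of equally translated genes that would give the same Shannon entropy, was 78.6, 67.3, 74.0 and 68.6, lower in each KO column than in its control. Olfr578, of family MOR7, led both Ngn1-GFP columns with 5.07% and 6.71% of the group's footprints. Olfr570 led the OMP-GFP control with 4.44% and Olfr690 the OMP-GFP KO with 4.45%. The 10 leading receptors of each column together held 27.4%, 35.3%, 31.7% and 32.5%.

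Olfr578 had 311, 283, 194 and 189 footprints. Per length this was 74.1, 99.1, 57.6 and 48.9 RPKM, so the gene was highest in the Ngn1-GFP KO and lowest in the OMP-GFP KO. Olfr570, a MOR8 receptor, followed with 57.3, 73.8, 59.0 and 42.1 RPKM. Olfr690 stood above both in the OMP-GFP KO, with 36.0, 45.6, 46.3 and 53.8 RPKM. Olfr686 had 32.9, 55.7, 43.7 and 49.1 RPKM and Olfr677 had 31.1, 43.9, 40.2 and 32.5 RPKM. Olfr649 was the steadiest of the leading receptors, between 28.8 and 33.9 RPKM. Olfr669 leaned to the immature cells, with 31.0 and 57.1 RPKM in the Ngn1-GFP columns and 17.9 and 15.1 in the OMP-GFP columns. Olfr615 leaned the other way, with 20.5, 26.6, 34.1 and 34.2 RPKM.

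**Figure D2:**
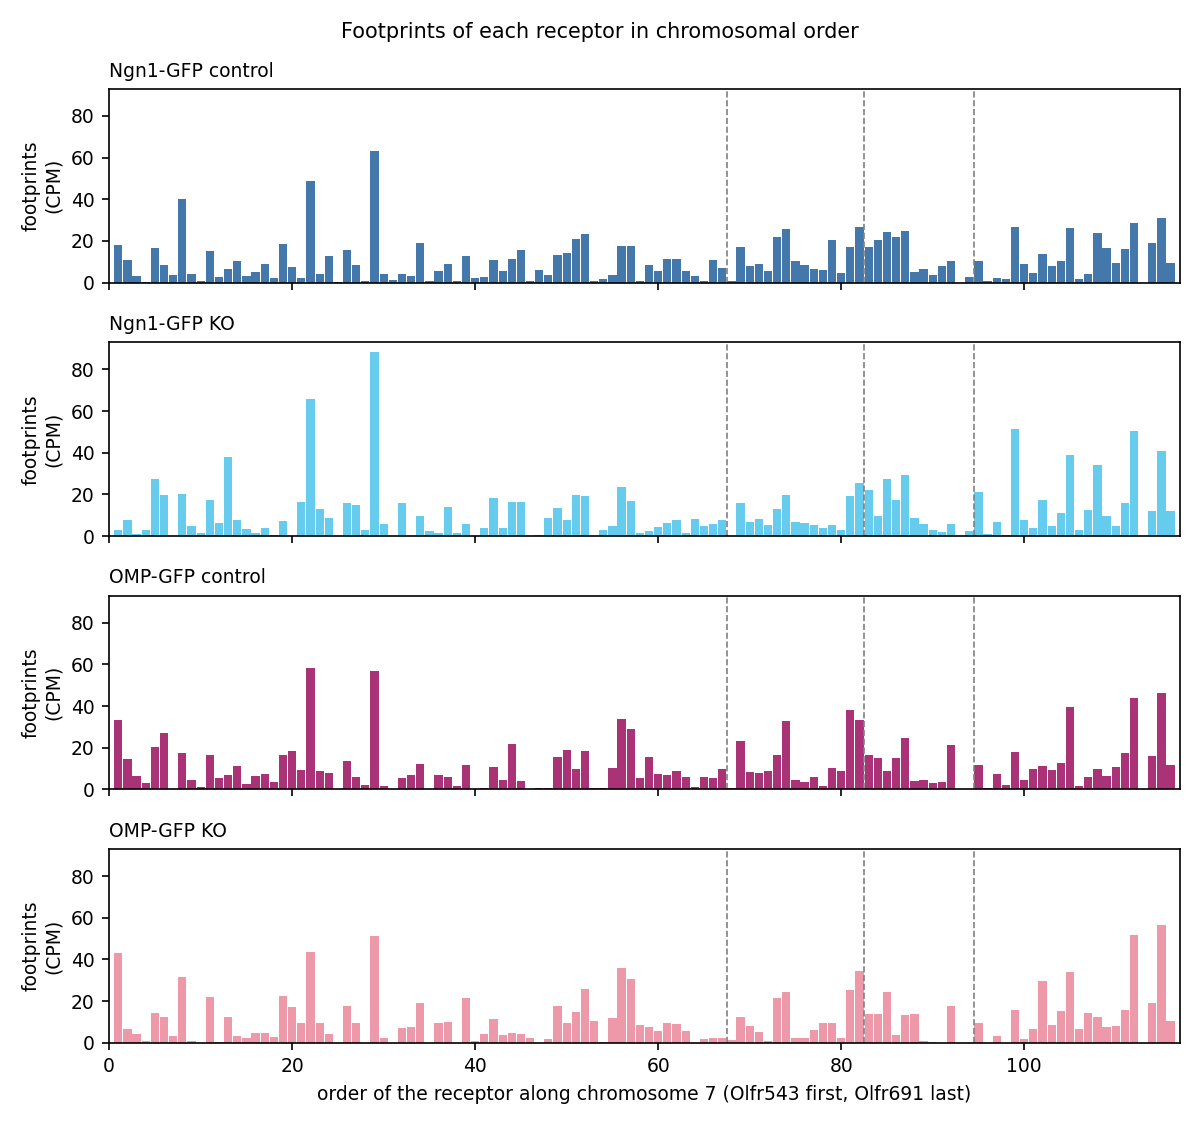
Footprints (CPM) of the 116 receptors in their order along chromosome 7, 1 panel per group on a shared scale. Dashed lines mark the gaps of over 100 kb between receptors of the group. The tallest bars in the first block are Olfr570 and Olfr578, and Olfr690 is the tall bar near the right end, highest in the OMP-GFP KO.

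Taken by themselves, the 116 receptors stand in 4 blocks separated by gaps of over 100 kb, with 67, 15, 12 and 22 genes. The gap between the first and second blocks holds class I receptors outside the number range: Olfr64, Olfr65, Olfr66, Olfr67, Olfr68 and Olfr69. The border between these blocks therefore depends on the choice of genes by number. The first block, Olfr543 to Olfr630, held 51.3% to 53.2% of the group's footprints in every column. The second, Olfr631 to Olfr649, went from 928 to 461 footprints in Ngn1-GFP cells (-0.39 [-0.55, -0.22]) and from 697 to 612 in OMP-GFP cells (-0.31 [-0.47, -0.15]). It was the only block of the 4 lower in both KO columns with intervals that exclude 0. The fourth, Olfr665 to Olfr691, was higher in the Ngn1-GFP KO (0.40 [0.28, 0.51]) and slightly higher in the OMP-GFP KO (0.13 [0.01, 0.26]). In the Ngn1-GFP control the fourth block held 30.9% of the group's RNA but 21.9% of its footprints, with 1.49 footprints per RNA read.

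Single receptors differed widely in footprints per RNA read. Of the 116, 36 had at least 100 RNA reads and 20 footprints in every column, and their values ran from 0.737 to 5.78 in the Ngn1-GFP control with a median of 2.29. The 159 other receptors that passed the same filter had a median of 2.15 there. In the OMP-GFP control the medians were 1.83 and 2.54. Olfr570 was highest, with 5.18, 6.53, 7.75 and 4.98 (geometric mean 6.01). Olfr578, Olfr649 and Olfr677 followed with geometric means of 5.25, 5.001 and 4.78. Olfr689, of family MOR40, was lowest with 0.928, 0.607, 0.711 and 0.742. Olfr598, Olfr672 and Olfr633 had geometric means of 0.839, 0.855 and 0.878. Olfr689 had among the most RNA of the group, with 1835, 585, 708 and 674 reads, yet only 93, 39, 55 and 71 footprints. Olfr549 showed the same, with the most RNA in both OMP-GFP columns (759 and 698 reads) against 70 and 53 footprints. Olfr669 led the Ngn1-GFP columns in RNA with 2565 and 808 reads. Across the 116 receptors, footprint and RNA levels correlated with r = 0.62, 0.72, 0.72 and 0.72 on log2(CPM + 1), a description over genes that share libraries.

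Receptors with known ligands are described first. Olfr544, which responds to azelaic acid, had 54, 25, 50 and 24 footprints. The OMP-GFP KO was lower than its control (-1.18 [-1.95, -0.45]), and in Ngn1-GFP cells the interval included 0 (-0.49 [-1.23, 0.22]). Its RNA in OMP-GFP cells was level at 128 and 135 reads. Olfr558, a receptor for short branched fatty acids, had 50, 24, 39 and 12 footprints and was lower in the OMP-GFP KO (-1.82 [-2.89, -0.86]). Olfr545, a receptor for dicarboxylic acids, had 15, 3, 22 and 15 footprints, and both KO intervals included 0. Its RNA was lower in the Ngn1-GFP KO, with 272 and 15 reads. Olfr690 and Olfr691, both of family MOR31 and both reported to bind short-chain acids, stayed near their controls: Olfr691 had 46, 38, 40 and 38 footprints. Olfr690 was 0.41 [0.06, 0.75] higher in the Ngn1-GFP KO and 0.29 [-0.01, 0.60] higher in the OMP-GFP KO, less than 2-fold in both.

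Loss of Mex3a in Ngn1-GFP cells went with a small difference in the summed footprints of the group and with large differences at single receptors. The sum was 0.08 [0.02, 0.14] higher in the KO and the share of receptor footprints -0.10 [-0.16, -0.05] lower. A receptor stood apart when both columns together gave it 20 counts or more and it differed at least 2-fold. Its counting interval also had to exclude a fold of 1. Of 94 receptors with enough counts, 11 (11.7%) were higher in the KO and 13 (13.8%) lower. Over all genes the shares were 6.49% higher and 10.8% lower, and among the other receptors 21.7% and 17.1%. The median log2 ratio was -0.10, against 0.26 for the other receptors and -0.0024 for all genes. The ratios had an SD of 0.96 over 77 receptors with at least 40 counts, where counting alone would give 0.34. The other receptors had 1.16 against 0.37, and variation between libraries, which 1 column per group cannot measure, is part of both SDs.

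Among the higher receptors, Olfr569 went from 11 to 52 footprints (2.86 [1.91, 3.95]) and Olfr557 from 33 to 122 (2.51 [1.94, 3.11]). Olfr584 went from 20 to 50 (1.94 [1.17, 2.77]) and Olfr679 from 20 to 40 (1.62 [0.81, 2.47]). Olfr569 and Olfr584 are both of family MOR30. None of these 4 receptors was 2-fold higher in RNA. The RNA log2 ratios were 0.64 for Olfr569, 0.14 for Olfr557, -0.13 for Olfr584 and -1.93 for Olfr679. Of the 11 higher receptors, 1 also met the same criteria in RNA. This count and those like it below were not set beside the other receptors or all genes. They are therefore not shown to be a trait of this group.

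Among the lower receptors, Olfr543, the first gene of the cluster, went from 90 to 10 footprints (-2.55 [-3.66, -1.60]). In RNA Olfr543 was higher in the KO, with a log2 ratio of 0.50. In OMP-GFP cells it had 113 and 160 footprints, so the Ngn1-GFP KO was the one low column. Olfr568 went from 38 to 0, at least 8.23-fold lower with the 0 set to 3 counts. Its RNA went from 110 to 94 reads, which after scaling was higher in the KO, with a log2 ratio of 1.40. Olfr645 went from 100 to 17 (-1.93 [-2.77, -1.18]). Olfr605 went from 30 to 1 footprints (-4.28 [-9.63, -1.70]), and was also low in OMP-GFP cells with 3 and 0. Of the 13 lower receptors, 2 met the criteria in RNA. Across the 94 receptors the footprint and RNA ratios correlated with r = 0.09.

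Families of receptors were also summed. They were taken from the MOR synonyms, and 6 had at least 5 genes. MOR14 had the largest ratio of the 6 in the Ngn1-GFP KO: its 8 genes had 231 footprints in the control and 43 in the KO (-1.80 [-2.31, -1.33]), with an RNA ratio of -0.28 [-0.43, -0.13]. In OMP-GFP cells they had 202 and 219 footprints. For comparison, 64 families of the other receptors ranged from -1.26 to 1.13 in the Ngn1-GFP KO, with 2 of them at least 2-fold lower. Each of the 8 genes had fewer counts in the KO, before scaling. Olfr566 went from 91 to 23 footprints, Olfr561 from 44 to 13, Olfr568 from 38 to 0, Olfr560 from 25 to 5, Olfr585 from 15 to 0, Olfr564 from 10 to 2, Olfr583 from 7 to 0 and Olfr574 from 1 to 0. Olfr560, Olfr561, Olfr566 and Olfr568 each met the criteria for a lower receptor. Between the KO columns MOR14 was 2.14 [1.66, 2.65] higher in the OMP-GFP cells, against 0.34 [0.06, 0.62] in controls. This family was picked out after its values were seen, and the Ngn1-GFP control also held the high level of sustentacular markers given above, whose part in this difference was not tested.

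**Figure D3:**
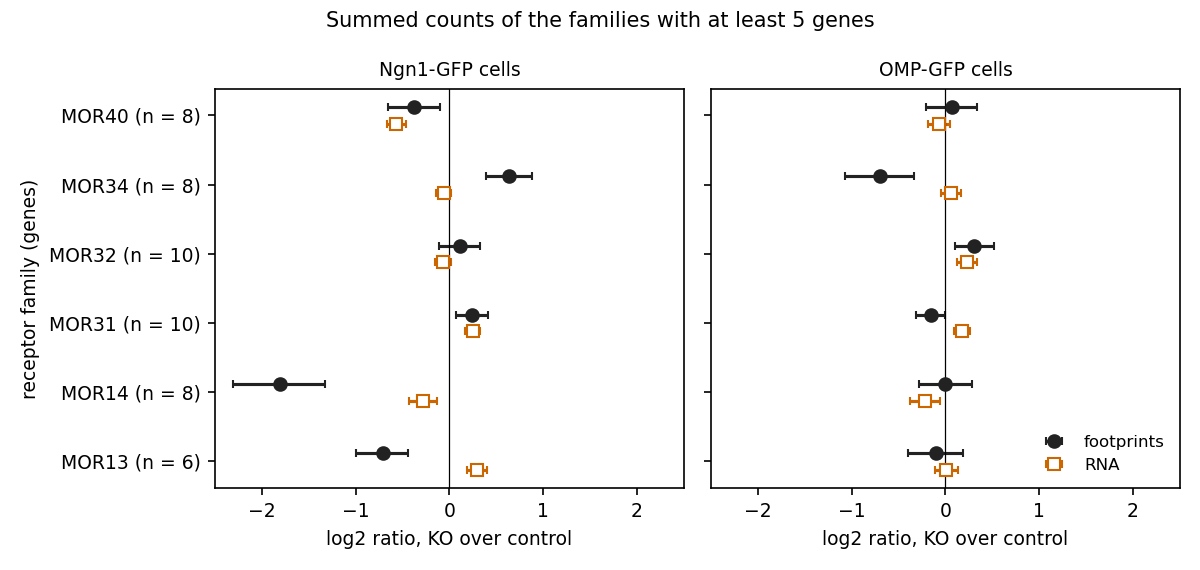
Log2 ratio of KO over control for the summed counts of the 6 families with at least 5 genes, in Ngn1-GFP cells (left) and OMP-GFP cells (right), with filled circles for footprints, open squares for RNA and bars for the 95% counting interval. MOR14 footprints lie at -1.80 in Ngn1-GFP cells and at 0 in OMP-GFP cells, and MOR34 footprints at 0.63 and -0.70.

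The coding starts of MOR14 are shown because reads can be assigned to a member only where its sequence differs from the others. RefSeq (GRCm38.p6) gene models begin at the start codon for 6 of the 8, and the first 50 coding bases of these, all in the coding exon, are given 5′ to 3′ with the start codon in capitals. They are Olfr560 at chr7:102753878-102753927 (minus strand), Olfr561 at chr7:102774526-102774575 (plus strand), Olfr568 at chr7:102877122-102877171 (plus strand), Olfr574 at chr7:102948467-102948516 (plus strand), Olfr583 at chr7:103051300-103051349 (plus strand), Olfr585 at chr7:103097743-103097792 (plus strand).
Olfr560: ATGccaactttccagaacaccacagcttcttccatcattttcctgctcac
Olfr561: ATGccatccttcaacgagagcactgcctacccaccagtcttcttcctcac
Olfr568: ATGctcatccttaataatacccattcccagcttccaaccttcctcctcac
Olfr574: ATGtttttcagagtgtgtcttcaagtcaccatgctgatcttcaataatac
Olfr583: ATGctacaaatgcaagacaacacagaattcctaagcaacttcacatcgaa
Olfr585: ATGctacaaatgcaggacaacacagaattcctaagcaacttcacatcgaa
Olfr583 and Olfr585 differ at a single base in this stretch (A15G, Olfr583 first, counted from 1 at the start codon), whereas Olfr560, Olfr561 and Olfr568 differ from their closest receptor at 18 to 20 of 50 bases. Without Olfr583 and Olfr585 the other 6 genes still went from 209 to 43 footprints (-1.66 [-2.17, -1.18]) with an RNA ratio of -0.09 [-0.24, 0.07].

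MOR13, whose 6 genes Olfr640 to Olfr645 adjoin each other in the second block, was also lower in the Ngn1-GFP KO, from 381 to 151 footprints (-0.71 [-0.99, -0.44]), with RNA higher by 0.30 [0.19, 0.41]. All 6 genes had fewer scaled footprints in the KO, from -0.29 in Olfr643 to -1.93 in Olfr645, and Olfr645 alone met the criteria. MOR34, with 8 genes, went opposite ways in the populations: it was 0.63 [0.39, 0.88] higher in the Ngn1-GFP KO and -0.70 [-1.07, -0.34] lower in the OMP-GFP KO, from 280, 282, 160 and 107 footprints. Of these, Olfr669 had 132 in the Ngn1-GFP control and 165 in its KO. MOR40 was -0.37 [-0.65, -0.10] lower in the Ngn1-GFP KO with an RNA ratio of -0.57 [-0.66, -0.47]. MOR31 was 0.24 [0.07, 0.41] higher there and MOR32 had an interval that included 0 (0.11 [-0.11, 0.32]).

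Loss of Mex3a in OMP-GFP cells went with a summed ratio whose interval included 0 (-0.05 [-0.10, 0.01]) and a slightly lower share (-0.10 [-0.16, -0.04]). Of 89 receptors with enough counts, 7 (7.87%) were higher in the KO and 14 (15.7%) lower. Over all genes the shares were 7.12% and 8.54%, and among the other receptors 16.4% and 15.0%. The median was -0.12, against 0.09 for the other receptors. Olfr611 had the largest ratio of the higher receptors, with 2 footprints in the control and 39 in the KO (4.17 [2.22, 7.26]). Olfr653 went from 30 to 91 (1.48 [0.87, 2.13]), Olfr656 from 13 to 52 (1.88 [0.98, 2.88]) and Olfr644 from 6 to 35 (2.42 [1.16, 3.96]). None of the 7 met the criteria in RNA, where their log2 ratios ran from -0.40 to 0.48.

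The lower receptors of the OMP-GFP KO included Olfr600, which went from 74 to 17 footprints (-2.24 [-3.10, -1.47]). Olfr638 went from 30 to 4 (-3.03 [-4.99, -1.52]), Olfr654 from 51 to 14 (-1.99 [-2.95, -1.11]) and Olfr556 from 19 to 1 (-4.37 [-9.74, -1.71]). In Ngn1-GFP cells Olfr600 had 56 and 52 footprints and Olfr638 28 and 17, so neither was 2-fold lower there. Of the 14 lower receptors, 1 met the criteria in RNA.

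Of 83 receptors with enough counts in both, 14 stood apart in Ngn1-GFP cells alone, 13 in OMP-GFP cells alone and 6 in both. Among 539 other receptors these numbers were 125, 93 and 69, and they were not taken over all genes. How many receptors would stand apart in both populations by accident was not worked out. Of the 6, Olfr679 was higher in both KO columns and Olfr618 lower in both, with 42, 7, 53 and 28 footprints. Olfr550, Olfr556, Olfr628 and Olfr667 were higher in the Ngn1-GFP KO and lower in the OMP-GFP KO. Olfr628 has the same coding start as Olfr243, and the pair, with 6, 23, 22 and 24 footprints, was higher in the Ngn1-GFP KO (2.56 [1.22, 4.15]) but not lower in the OMP-GFP KO (0.0055 [-0.89, 0.91]). Olfr550 had 41, 63, 92 and 45 footprints, so the control columns differed in the opposite sense to the KO columns. Across the 83 receptors the pairs of footprint ratios had r = -0.03, and across 108 receptors the RNA ratios had r = 0.29, both as descriptions over genes. Whether the KO difference itself differed between populations was not tested.

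**Figure D4:**
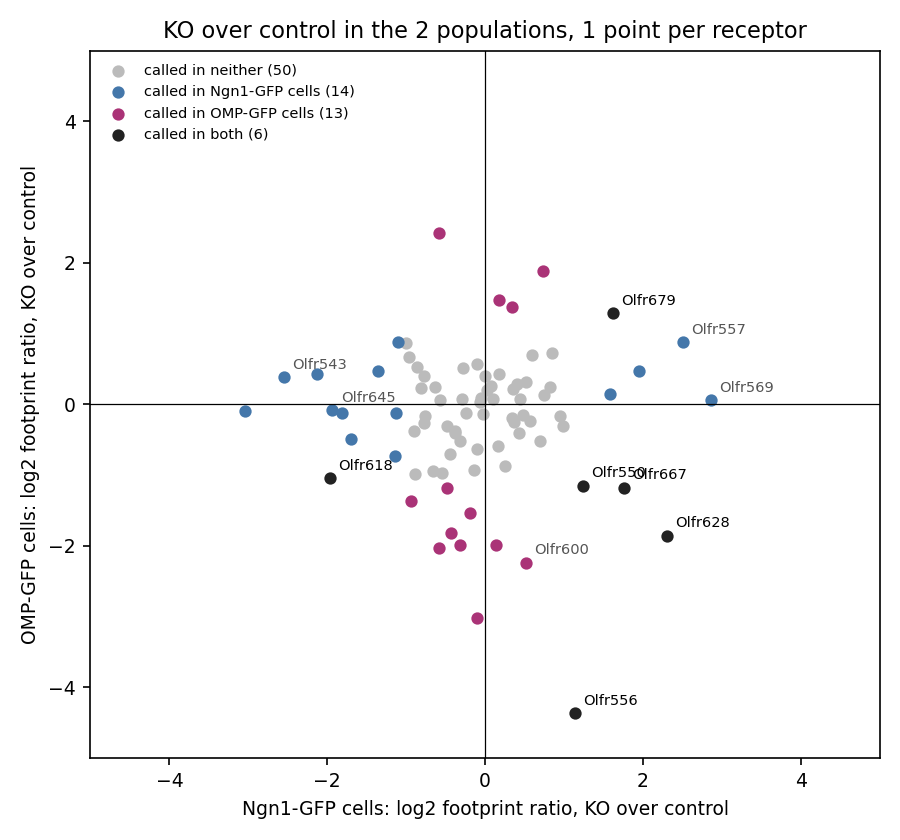
Log2 footprint ratios of KO over control for 83 receptors, with Ngn1-GFP cells on the horizontal axis and OMP-GFP cells on the vertical axis, coloured by the population in which the receptor stood apart. The 6 named black points stood apart in both, and 4 of them lie in the lower right quadrant, higher in Ngn1-GFP and lower in OMP-GFP cells.

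Between the control populations, the split of the receptors inside the range depended on the scaling. Of 97 receptors, 13 (13.4%) were higher in OMP-GFP and 13 (13.4%) higher in Ngn1-GFP cells with TMM scaling, and 7 and 18 with library size alone. Over all genes 6.11% were higher and 17.4% lower in OMP-GFP cells, and among the other receptors 25.1% and 7.34%. The median was 0.11 with TMM and -0.10 with library size alone, against 0.49 with TMM for the other receptors. Olfr617 was higher in OMP-GFP cells in both genotypes, with 4, 4, 19 and 31 footprints. Olfr569, Olfr550 and Olfr628 were higher there in controls (2.03, 1.70 and 2.53), with KO ratios of -0.78, -0.70 and -1.63. Olfr628 and its copy Olfr243 as a pair were 2.41 [1.06, 3.999] higher in controls, with a KO ratio of -0.15 [-1.04, 0.74]. Olfr601 was lower in OMP-GFP cells in both genotypes, with 76, 53, 14 and 16 footprints. Olfr551 had 19, 0, 1 and 13 footprints, with the OMP-GFP control lower than the Ngn1-GFP control (-3.72 [-9.09, -1.06]). Olfr653 (-1.47 [-2.10, -0.88]) and Olfr605 (-2.79 [-5.15, -1.10]) were also lower.

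Between the KO populations 14 of 91 receptors (15.4%) were higher in OMP-GFP cells and 24 (26.4%) lower. Over all genes the shares were 11.3% and 18.4%, and among the other receptors 30.4% and 15.2%. Olfr543 (3.79 [2.87, 4.88]) and Olfr568, with 0 and 63 footprints, were higher, both being low in the Ngn1-GFP KO column. Olfr611 and Olfr585, at 0 in that column, had 39 and 28 footprints in OMP-GFP cells. Olfr669 (-1.69 [-2.15, -1.26]), Olfr654 (-2.21 [-3.17, -1.35]), Olfr556 (-4.53 [-9.91, -1.89]) and Olfr624, with 26 and 0 footprints, were lower. This comparison uses the same KO columns as the comparisons with controls, so its receptors are not further evidence for those.

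RNA counts were compared by the same criteria. In the Ngn1-GFP KO 4 of 112 receptors were at least 2-fold higher and 18 lower, while all genes had 4.40% higher and 11.9% lower and the other receptors 6.14% and 22.7%. In the OMP-GFP KO it was 1 higher and 7 lower of 109, where all genes had 4.40% and 3.89% and the other receptors 10.6% and 9.82%. Between control populations 13 of 113 were higher and 10 lower in OMP-GFP cells, beside 3.43% and 24.1% of all genes and 10.9% and 16.8% of the other receptors. Between KO populations it was 11 and 8 of 109, beside 4.77% and 16.4% of all genes and 21.4% and 6.48% of the other receptors.

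Many of the receptors with lower RNA in the Ngn1-GFP KO have a close copy. The first 50 coding bases could be read for 76 of the 116, and 15 of these share a run of 28 bases, about the length of a footprint, with another receptor. This grouping was made after the values were seen. Their RNA ratio of Ngn1-GFP KO over control had a median of -1.52, and 8 of the 15 were at least 2-fold lower. Of the 61 receptors with no shared run, 58 had enough reads, with a median of -0.05, and 5 were at least 2-fold lower. Some of these 61 still have a near copy, such as Olfr584, which differs from Olfr582 at 3 of the 50 bases. Likewise Olfr638 differs from Olfr635 at 4 and Olfr663 from Olfr661 at 2. Footprint medians were 0.51 over the 9 of the 15 with enough counts and -0.10 over 50 of the 61. The other 6 of the 15 had too few footprints to enter that median, and 5 of them had footprints in the control and none in the KO. Olfr597 and Olfr598 share a run, but each is closest over the 50 bases to another receptor, and they were not summed as a pair. Of the 7 pairs summed, 4 were lower and 3 higher in footprints in the Ngn1-GFP KO. Among them, Olfr583 and Olfr585 went from 22 to 0 and Olfr596 and Olfr603 from 15 to 0. The same split in RNA between the control populations gave -0.88 and 0.13, and in the OMP-GFP KO -0.04 and -0.20. The control RNA of Ngn1-GFP cells is the column common to both comparisons in which the sets parted, and the part of shared sequence in them was not tested. Among the other receptors the Ngn1-GFP KO medians were -0.40 for 135 that share a run and -0.16 for 464 that do not.

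**Figure D5:**
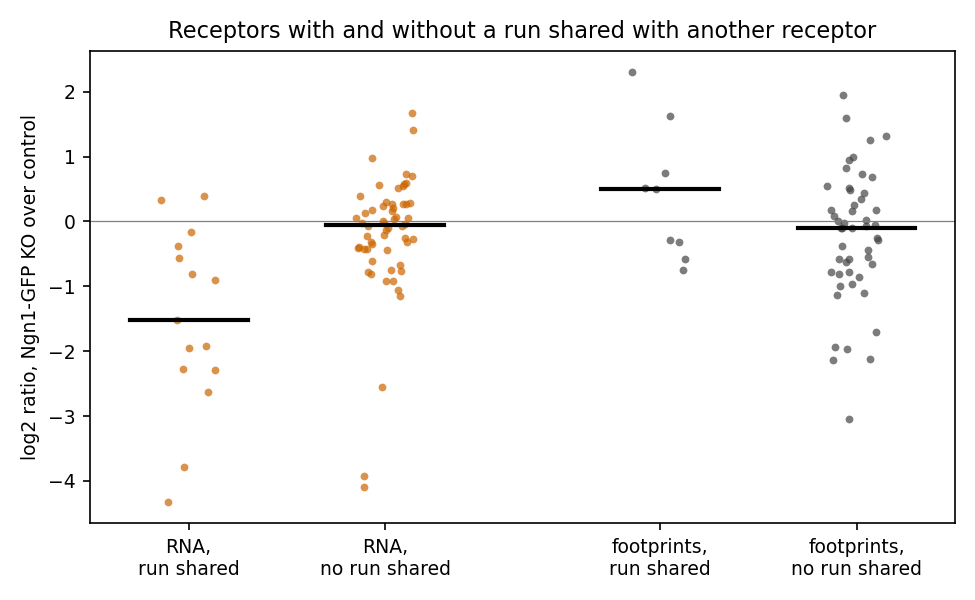
Log2 ratio of Ngn1-GFP KO over control for receptors whose first 50 coding bases share, or do not share, a run of 28 bases with another receptor, in RNA (left, 15 and 58 receptors) and footprints (right, 9 and 50), 1 point per receptor with black bars for medians. The RNA median is -1.52 with a shared run and -0.05 without, and the footprint medians are 0.51 and -0.10.

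The pairs behind these values are shown as 5′ to 3′ coding starts from RefSeq (GRCm38.p6), with the bases that differ in capitals, since Olfr611, Olfr679, Olfr644 and Olfr628 were named above as changed. Olfr611 and Olfr612 differ by A45G (Olfr611 first, counted from the start codon), and the other pairs shown are identical over these bases. Olfr611 begins at chr7:103518333-103518382 and Olfr612 at chr7:103539183-103539232, both on the minus strand. Olfr679 begins at chr7:105085718-105085767 and Olfr681 at chr7:105121459-105121508 on the plus strand, and Olfr643 at chr7:104059551-104059600 and Olfr644 at chr7:104068980-104069029 on the minus strand. Olfr243 begins at chr7:103716596-103716645 and Olfr628 at chr7:103731928-103731977, both on the plus strand.
Olfr611: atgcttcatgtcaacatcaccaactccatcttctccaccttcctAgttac
Olfr612: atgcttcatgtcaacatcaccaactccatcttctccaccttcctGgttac
Olfr679: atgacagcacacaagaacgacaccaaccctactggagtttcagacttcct
Olfr681: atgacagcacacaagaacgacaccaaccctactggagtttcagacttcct
Olfr643: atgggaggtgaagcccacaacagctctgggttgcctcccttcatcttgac
Olfr644: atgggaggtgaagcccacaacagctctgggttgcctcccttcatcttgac
Olfr243: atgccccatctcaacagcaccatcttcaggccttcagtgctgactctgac
Olfr628: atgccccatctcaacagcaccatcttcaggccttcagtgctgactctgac
Reads from the identical stretches cannot be assigned to one gene of a pair, so the single-gene values are uncertain. Olfr611 and Olfr612 had 994 and 932 RNA reads in the Ngn1-GFP control against 52 and 62 in its KO, and Olfr611 had 104 in the OMP-GFP control. Their footprints as a pair were 11, 10, 4 and 40, so the OMP-GFP KO was high for the pair as well (3.20 [1.73, 5.15]). Olfr679 and Olfr681 had 870 and 1086 RNA reads in the Ngn1-GFP control against 74 and 122 in its KO, while the pair had 137, 149, 54 and 99 footprints. As a pair they were 0.74 [0.40, 1.09] higher in the Ngn1-GFP KO and 0.75 [0.26, 1.26] higher in the OMP-GFP KO. Olfr643 and Olfr644 had 62, 30, 26 and 58 footprints as a pair, 1.04 [0.35, 1.76] higher in the OMP-GFP KO. Olfr596 and Olfr603, identical in this stretch, had 371 and 300 RNA reads in the Ngn1-GFP control and 6 and 7 in its KO.

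Leaving out all receptors with a shared run, 15 of the 116 and 136 others, kept the step in footprint share at 17.1%, 15.8%, 13.5% and 12.4%. The RNA shares became 13.4%, 15.1%, 14.1% and 13.4%. Footprints per RNA read relative to the other receptors became 1.33 [1.29, 1.37], 1.05 [1.02, 1.096], 0.951 [0.918, 0.986] and 0.914 [0.882, 0.948]. With only the receptors read to share no run, 61 of the 116 and 472 others, they were 1.29 [1.24, 1.34], 1.01 [0.964, 1.06], 0.957 [0.913, 1.002] and 0.925 [0.884, 0.969]. The intervals of the Ngn1-GFP KO and of the OMP-GFP control then included 1. The summed RNA ratio of the Ngn1-GFP KO, -0.09 [-0.11, -0.06] over all 116 receptors, was 0.04 without them.

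Regulators known to act on receptor choice were set beside the receptors. Of 8 listed, 7 were found in the data, and Bcl11b was not. Lhx2, a homeodomain factor needed for receptor expression, had 353, 349, 105 and 119 footprint CPM. Emx2, another homeodomain factor, had 144, 154, 105 and 84.9. Ldb1, a cofactor that binds Lhx2, had 216, 195, 129 and 91.6. Of the Ebf factors, Ebf1 had 399, 339, 227 and 218, Ebf2 had 1073, 1131, 888 and 786, and Ebf3 had 912, 822, 588 and 493, each lower in the OMP-GFP column of both genotypes. Ebf4 was higher there, with 300, 277, 489 and 421. In RNA the control log2 ratios of OMP-GFP over Ngn1-GFP cells were 0.08 for Ebf1, 0.05 for Ebf2, 0.11 for Ebf3 and 0.77 for Ebf4. For Lhx2, Ldb1 and Emx2 they were -0.29, -0.15 and -0.41. The lower footprints of Ebf1, Ebf2 and Ebf3 in the OMP-GFP control thus had no lower RNA beside them. Windows of 250 bases before the annotated start were available for 23 of the 116 whose gene model begins upstream of the coding start. Those models ran from 990 bases (Olfr601) to 15605 bases (Olfr631), against a median coding length of 954 bases. Where a model is little longer than the coding sequence, its window may lie beside the coding exon and not at the promoter. The homeodomain letters TAATTA or TAATGA, on either strand, stood in 8 of the 23 windows (34.8%). They stood in 45.1% of 224 such windows of other receptors and in 11.9% of those of all genes. The Ebf letters CCCNNGGG stood in 2 (8.70%), against 7.14% of the other receptors and 12.1% of all genes.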

How the data were processed

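Cells of 4 groups were profiled by ribosome footprinting and RNA sequencing. Reads were handled with cutadapt, FastQC and STAR on mm10, per the submitters' processing notes. The deposited counts are footprints and RNA reads over coding sequences, per the file headers, and are not normalized. RPKM of footprints and TPM of RNA were computed by the authors, per the file headers, and were used for levels per length and as an alternative. The coding length is another deposited value, in bases. The 4 columns of the authors' translational efficiency were not used. No source used here states how a column was made from its 2 libraries.

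The design had foreseen replicates, and with 1 column per group ratios with exact conditional 95% counting intervals replaced tests. Columns were scaled by TMM (edgeR 4.0.16, R 4.3.3) over genes kept by filterByExpr (minimum count 10, minimum total 15), 13479 for footprints and 16388 for RNA. A 0 was set to 3 counts, and its fold is given as "at least". Other steps used Python 3.11.15, numpy 2.4.6, pandas 2.3.3, scipy 1.17.1 and matplotlib 3.10.9, and the call and thinning steps were tested on simulated data. One symbol of the other receptors, Olfr290, stands in the file in 2 identical lines and was counted as given. Chromosome positions, families and sequences came from RefSeq (GRCm38.p6), where all 116 symbols were found.

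Named receptors were those with known ligands, the 8 with most footprints, the extremes in footprints per RNA read and in RNA, and the largest ratios in each direction of each comparison. The receptors, gene lists and this rule were chosen with earlier results of these data known. Alternatives were other scalings (DESeq2 1.42.0 size factors among them), count filters, class I genes alone, leading receptors left out, summed RPKM or TPM, and receptors with shared sequence left out.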

Additional observations from a re-analysis of the deposited data

How the results depend on the processing

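Of 292 alternative values for 40 results, 215 stayed within a margin set for each kind of result. The other 77 moved further, 16 of them across 0. The margin was the interval for ratios and numbers detected, 1.5 times for counts, and a fixed band for medians and effective numbers. A value outside its margin counts as moved even where it kept its direction. The lower footprint share in OMP-GFP cells kept its direction in both genotypes under every alternative tried, leaving out leading receptors included. The cause of the changes below was not tested unless fewer genes or counts were used. Log2 ratios are given for the Ngn1-GFP KO, the OMP-GFP KO, and OMP-GFP over Ngn1-GFP in controls and in KO, named as the first to the fourth comparison.

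With library size alone, summed footprints were 0.015, -0.12, -0.14 (0.07 with TMM) and -0.28. Summed RNA was -0.030 in the first, 0.10 in the third and 0.15 in the fourth comparison, and footprints per RNA read were 0.045, -0.24 and -0.43 in these. Median footprint ratios were -0.10 in the third and -0.11 in the fourth, and 7 receptors stood higher and 18 lower in the third. With summed RPKM or TPM, footprints were 0.0064, -0.12, -0.15 and -0.27, and RNA was 0.16 (-0.09 with counts), -0.010 (0.03 with counts), 0.28 and 0.11. Footprints per RNA read were then -0.15 (0.17 with counts) in the first and -0.42 in the third comparison.

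With class I receptors alone, the RNA share was 0.11 in the first and 0.037 in the third comparison, and summed RNA -0.052 and 0.17. Requiring 10 footprints left 90.9, 90, 88.6 and 77.9 receptors detected. With 50 counts in the pair, those standing higher and lower numbered 6 and 6 in the first comparison, 4 and 6 in the second and 6 and 9 in the fourth, with 7 higher in the third. With 100 counts they numbered 2 and 4, 2 and 1, 4 and 5, and 2 and 5. Median ratios were 0.13 in the first comparison with 100 counts and 0.081 in the second with 50 or 100, and -0.052 in the fourth with 1 count.

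The last alternatives were added after the data were seen. Without receptors that share coding sequence, the RNA share was 0.17 in the first and 0.075 in the third comparison, summed RNA 0.041 and 0.24, and footprints per RNA read 0.025 and -0.15. The second comparison then had 4 higher receptors, and the fourth a median of -0.052. With only receptors read to share no run, the first comparison had a footprint share of -0.20, summed footprints of 0.019, summed RNA of 0.016 and 0.0039 for footprints per RNA read. The third had an RNA share of -0.014, summed RNA of 0.20, -0.16 for footprints per RNA read and a median of -0.12. The fourth had summed RNA of 0.20, -0.23 for footprints per RNA read and a median of 0.24. Higher and lower receptors then numbered 4 and 8, 2 and 4, 5 and 7, and 6 and 13.

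No paired analysis was possible because the table has 1 column per group, and leaving out a replicate could not be run for the same reason. Leaving out near-identical protein copies was not run. The median receptor had 22 to 41 footprints per column, which limits single-receptor values. Copies with identical sequence limit the single-gene values, and 40 of the 116 coding starts were not assessed for them.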
